A study of Mus musculus with 6 samples.

Results

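The genes described here move calcium out of the cytosol or let it leak back from the endoplasmic reticulum (ER). They are 8 mouse genes chosen by name, of 23886 gene identifiers measured: the ER pumps Atp2a2 and Atp2a3, the plasma membrane pumps Atp2b1 and Atp2b4, the Golgi pump Atp2c1, the sodium-calcium exchanger Slc8a1, and the ER leak proteins Tmco1 and Tmbim6. All 8 were found by their Ensembl identifiers, and 6 reached the level needed for a test. Expression was measured by RNA sequencing of poly(A) RNA in AML12, a hepatocyte line derived from a mouse carrying a transgene for human TGF-alpha. Control libraries (numbers 2, 3 and 4) came from untreated wild type AML12 cells, and SMF libraries (numbers 1, 2 and 3) from the same wild type line kept in a static magnetic field (SMF), which is constant over time. Neither the strength of the field nor the length of exposure is given in the sources used here. The series title links exposure to calcium influx, so the question for these genes is whether transcripts of the machinery that removes calcium differ between exposed and untreated cells.

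A resting cell keeps calcium in its cytosol far below the levels outside and in the ER. Pumps of the P-type ATPase family do this work with ATP: SERCA pumps fill the ER, PMCA pumps push calcium across the plasma membrane, and SPCA pumps load the Golgi with calcium and manganese. Sodium-calcium exchangers use the sodium gradient in place of ATP and are best known from heart and nerve. Calcium also leaves the ER through leak routes, among them Tmco1, described as a channel that opens when the ER is overfilled, and Tmbim6 (BAX inhibitor-1), an ER protein of the TMBIM family that protects against cell death. In hepatocytes these routes shape calcium signals that follow hormones and bile acids.

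The 5 pumps share the site at which they take up phosphate from ATP. The coding stretch around it is shown for 4 of them because it is a part on which the pumps are readily aligned, and so a place where reads of 1 pump might be taken for those of another. Each stretch has 51 bases, 5′ to 3′, from GENCODE M21 transcripts, with the codon of the phosphorylated aspartate and the next 4 codons in capitals.
Atp2a3: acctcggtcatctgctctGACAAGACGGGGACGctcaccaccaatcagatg
Atp2b1: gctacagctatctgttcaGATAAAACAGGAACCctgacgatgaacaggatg
Atp2b4: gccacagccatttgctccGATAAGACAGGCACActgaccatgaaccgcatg
Atp2c1: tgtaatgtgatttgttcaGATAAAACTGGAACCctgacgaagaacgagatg
The aspartate is codon 351 in Atp2a3, codon 475 in Atp2b1, codon 466 in Atp2b4 and codon 383 in Atp2c1. Even here no pair of the 4 had over 78.4% of bases in common. Atp2a3 had 31 of 51 bases in common with Atp2b1, 35 with Atp2b4 and 30 with Atp2c1. Across whole transcripts, no run of 50 bases was found in more than 1 of the 8 genes. Runs of 50 bases found in any other gene made up 3.93% of those of Atp2a2, 1.27% for Atp2b1, 1.04% for Atp2b4, 1.31% for Tmco1, 1.33% for Slc8a1, 0.0745% for Atp2a3 and 0% for Tmbim6. Atp2c1 stood apart at 17.4%, since its exons overlap those of Aste1 on the other strand over 18.9% of their length. The library protocol states no strand marking, so reads from that overlap cannot be assigned to 1 of these genes. Aste1 itself was low, at 1.08 ± 0.15 FPKM in Control and 1.02 ± 0.16 under SMF (SD, n = 3), and its part in the Atp2c1 values was not tested.

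Levels are given as FPKM, fragments scaled to the length of the gene and the total of the library, which allows genes to be compared per length. The order of mean levels over the 6 libraries ran from Tmbim6 (265.4 FPKM) through Atp2a2 (99.1), Tmco1 (21.6), Atp2c1 (7.003), Atp2b1 (5.57), Atp2b4 (1.81) and Atp2a3 (0.35) to Slc8a1 (0.0016). No neighbours in this order overlapped between any libraries, including the closest, Atp2c1 and Atp2b1, whose means differed by a factor of 1.26. The order of these 2 holds per length only: Atp2c1 had 957 to 1249 reads and Atp2b1, with longer exons, 1257 to 1624. The part of the exon overlap with Aste1 in this order was not tested. Tmbim6 lay above 98.8% and Atp2a2 above 96.2% of the 11114 tested genes, while Atp2b4 lay above 10.04%. Among these 8 genes, AML12 transcripts per length were therefore mostly those of 1 ER pump and 1 ER leak protein. Counts behind these levels, recovered from the steps of the FPKM values, were 19333 to 23076 reads per library for Tmbim6, 8970 to 11311 for Atp2a2, 302 to 416 for Atp2b4 and 26 to 38 for Atp2a3.

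**Figure D1:**
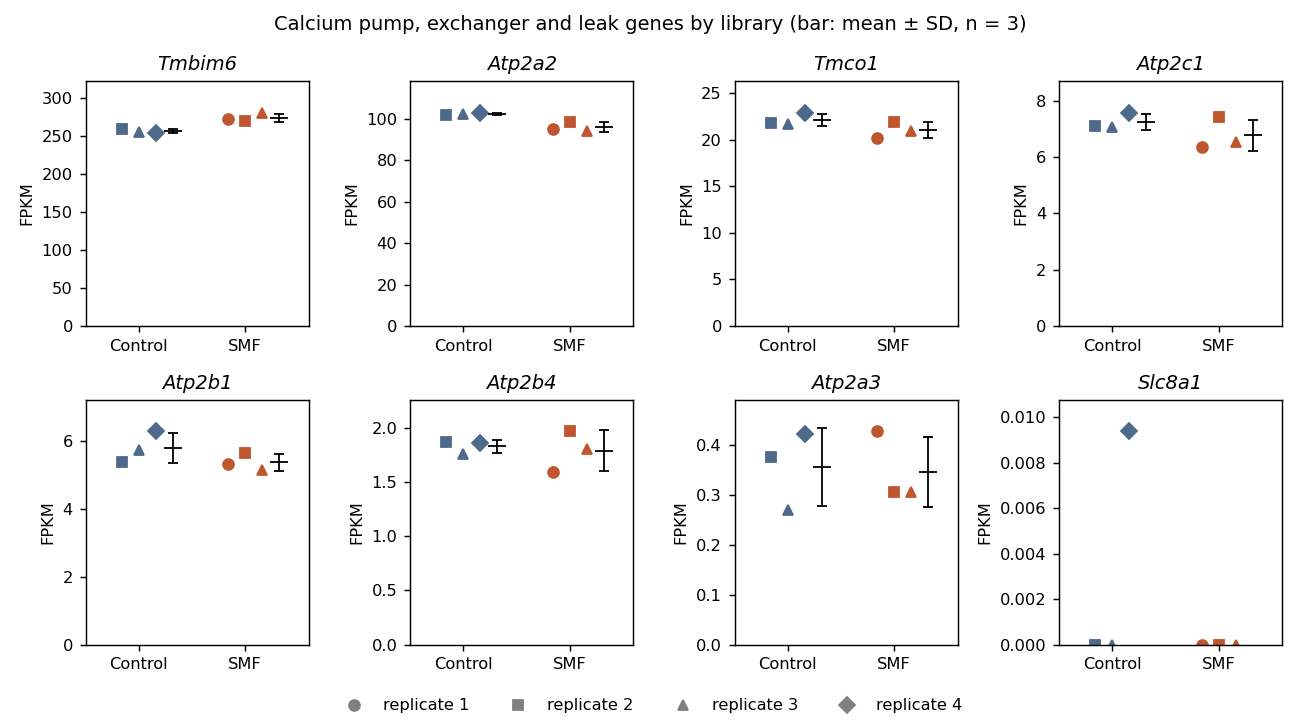
FPKM of the 8 genes in each library, 1 panel a gene with its own linear axis from 0; symbols give the replicate number, and bars the mean ± SD of 3 libraries (not drawn for Slc8a1, listed at 0 in 5 libraries). Control and SMF points separate for Tmbim6 (SMF higher) and Atp2a2 (SMF lower) and overlap for the other genes.

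Library totals behind the FPKM ran from 15514530 to 18200516 reads, and those of the groups overlapped. The summed FPKM of the groups did not overlap, at 298090 to 300004 in Control and 301951 to 309514 under SMF. Folds below use these values without rescaling unless a scale is named. Genes were tested with limma on log2(FPKM + 1) where at least 3 libraries reached 1 FPKM, and p was adjusted by the Benjamini-Hochberg method over all 11114 tested genes. Fold changes below are on that log2 scale. At an adjusted p of 0.05, limma called 0.0% of the tested genes (0 genes), 18.0% had an unadjusted p under 0.05, and limma-voom on the recovered reads called 4.45%. The labels do not say whether replicates are separate cultures, so p-values measure the spread between these libraries, which may be technical. Of 11 hepatocyte markers, 8 had a mean of at least 1 FPKM, with Alb, serum albumin, at 29.2 ± 4.33 in Control and 30.4 ± 2.8 under SMF, and the summed level was 3647 to 3840 in Control and 3822 to 4028 under SMF. Most of that sum was Krt8 (1921 ± 50.6 and 2018 ± 61.9 FPKM) and Krt18 (1584 ± 56.9 and 1658 ± 45.4), keratins that biliary cells share, while Apoa1 and Serpina1a stayed under 0.6 FPKM. Cps1, of the urea cycle, was listed at 0 in all 3 controls and reached at most 0.01 FPKM. Cholangiocyte markers were also present (4 of 5, summed at 1949 to 2064 and 1968 to 2125 FPKM), and Krt19, a biliary keratin, was at 1063 ± 10.7 in Control and 1110 ± 74.9 under SMF. Fibroblast markers summed to at most 1.94 FPKM, endothelial markers to at most 0.17, macrophage and leukocyte markers to at most 4.33, and heart and skeletal muscle markers to at most 7.27, nearly all of it Tnnt2. The part of these markers in the results below was not tested.

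None of the 6 tested genes passed limma over all genes in the comparison of SMF with Control, beside the 0.0% called among all genes. limma-voom called none of the 6 either. At an unadjusted p under 0.05, limma had 2 of the 6, Atp2a2 and Tmbim6, where 18.0% of all tested genes had such a p. Of the 6, 5 had a fold below 0 and 1 above. Their median was -0.08, beside -0.01 over all tested genes, of which 46.7% lay above 0. The median was -0.04 without Control 4, -0.05 without SMF 1, -0.02 with a replicate block (a term for the library number) and -0.12 on the TPM scale (libraries rescaled to a common sum), and it turned to 0.01 with a correction for GC content and exon length and to 0.03 with block and correction. After this correction, made in each library, 3 of the 5 folds below 0 turned positive, those of Atp2b1, Atp2b4 and Atp2c1. Control 4 and SMF 1 have no same-numbered library in the other group, so folds with the block rest on numbers 2 and 3 only.

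Atp2a2 (ENSMUSG00000029467) encodes SERCA2, the pump that refills the ER in most tissues. It stood at 102.0, 102.2 and 102.8 FPKM in Control 2, 3 and 4, and at 95.1, 98.6 and 94.2 FPKM in SMF 1, 2 and 3. Every SMF library lay below every control, and the controls lay closer together than the SMF libraries. The means were 102.3 ± 0.41 and 95.9 ± 2.33 FPKM (SD, n = 3), a plain ratio of 0.938. The log2 fold was -0.09 (SE 0.033, 95% interval -0.17 to -0.02), with an adjusted p of 0.218 by limma. Groups that do not overlap with SMF lower were found for 12.7% of all tested genes, so the separation of Atp2a2 is of a kind seen in many genes. With the GC and length correction the fold was -0.05 (95% interval -0.11 to 0.006) and the groups still did not overlap, as for 8.87% of genes on that scale. The fold was -0.13 on the TPM scale (95% interval -0.21 to -0.045) and -0.08 without SMF 3 (95% interval -0.17 to 0.02).

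Atp2a3 (ENSMUSG00000020788), which encodes SERCA3, a pump known from blood and some epithelial cells, was too low for the test. Its FPKM was 0.38, 0.27 and 0.42 in Control 2, 3 and 4, and 0.43, 0.31 and 0.31 in SMF 1, 2 and 3. The groups overlapped, with the lowest value in a control and the highest in an SMF library (two-sided exact permutation p = 1; 3 against 3 libraries cannot give less than 0.1). Within the SERCA family, Atp2a2 made up 99.5 ± 0.072% of the summed FPKM in Control and 99.5 ± 0.097% under SMF. Atp2a3 held 0.26% to 0.45% and the muscle form Atp2a1 0.068% to 0.15%, so the ER pump transcripts of AML12 were almost all of 1 gene in either group.

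Atp2b1 (ENSMUSG00000019943) encodes PMCA1, the plasma membrane pump found in nearly all tissues. Control 2, 3 and 4 had 5.38, 5.71 and 6.27 FPKM, and SMF 1, 2 and 3 had 5.32, 5.63 and 5.13. The groups overlapped because SMF 2 lay above Control 2, while the highest value was that of Control 4. The log2 fold was -0.09 (SE 0.068, 95% interval -0.25 to 0.06, limma adjusted p = 0.496), and after the GC and length correction it was 0.02, on the other side of 0. Without Control 4 it was -0.04, and -0.04 with the replicate block. Atp2b4 (ENSMUSG00000026463), which encodes PMCA4, a second plasma membrane pump, had 1.87, 1.76 and 1.86 FPKM in Control and 1.59, 1.97 and 1.81 under SMF. SMF 1 was the lowest of all 6 libraries and SMF 2 the highest, so the SMF spread enclosed the controls. Its log2 fold was -0.02 (95% interval -0.23 to 0.19, adjusted p = 0.913), and without SMF 1 it was 0.03. Atp2b1 accounted for 75.9 ± 1.54% of PMCA transcripts per length in Control and 74.9 ± 1.68% under SMF, and Atp2b4 for 24.1 ± 1.55% and 24.9 ± 1.73%. The nerve forms Atp2b2 and Atp2b3 reached at most 0.058% and 0.19%. The division of the plasma membrane pumps between their isoforms thus differed between groups by less than the spread between libraries.

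Atp2c1 (ENSMUSG00000032570) encodes SPCA1, which supplies the Golgi with calcium and manganese. Its values were 7.10, 7.05 and 7.57 FPKM in Control 2, 3 and 4 and 6.36, 7.41 and 6.53 in SMF 1, 2 and 3. SMF 1 and SMF 3 lay below all controls, while SMF 2 lay among them. The log2 fold was -0.09 (SE 0.066, 95% interval -0.24 to 0.06, limma adjusted p = 0.508) and 0.0084 after the GC and length correction. It ran from -0.05 without SMF 1 to -0.14 without SMF 2 (limma adjusted p = 0.195), and was -0.02 with the replicate block. Atp2c1 held 94.8 ± 0.33% of SPCA transcripts per length in Control and 94.2 ± 1.3% under SMF, the rest being Atp2c2.

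Slc8a1 (ENSMUSG00000054640), the exchanger NCX1 of heart muscle, was listed at 0 in 5 libraries and at 0.0094 FPKM, or 3 reads, in Control 4. A count of 0 allows up to 3 reads, which for this gene is 0.0088 to 0.0103 FPKM depending on the library and covers counting error only. Both groups were at or under that limit, so no difference was detectable at this depth and no fold is given. The related exchangers Slc8a2 and Slc8a3 had means of 0.022 and 0 FPKM in Control and 0.0071 and 0.0036 under SMF. Slc8b1, the exchanger of mitochondria and the only one of the family to be tested, was at 15.2 ± 1.03 and 17.1 ± 0.87 FPKM (log2 fold 0.16, limma adjusted p = 0.236, and 0.10 after the GC and length correction). Export of calcium across the plasma membrane was therefore represented at the transcript level by the pumps and not by the exchangers of this family.

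Tmco1 (ENSMUSG00000052428), the ER leak channel, had 21.8, 21.8 and 22.9 FPKM in Control 2, 3 and 4 and 20.2, 21.9 and 21.0 in SMF 1, 2 and 3. SMF 2 lay above Control 2 and Control 3, and the other SMF libraries lay below all controls. The log2 fold was -0.07 (SE 0.045, 95% interval -0.18 to 0.03, limma adjusted p = 0.429), and -0.01 after the GC and length correction. It was -0.04 without SMF 1, -0.02 with the replicate block and -0.11 on the TPM scale.

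Tmbim6 (ENSMUSG00000023010), was the most abundant of the 8 and the only tested one with a fold above 0 in the uncorrected fit of all 6 libraries. It measured 259.2, 255.9 and 254.4 FPKM in Control 2, 3 and 4 and 272.2, 270.4 and 280.5 FPKM in SMF 1, 2 and 3. The lowest SMF library lay above the highest control, as in 11.0% of all tested genes. The means were 256.5 ± 2.46 and 274.4 ± 5.41 FPKM (SD, n = 3), a plain ratio of 1.07. The log2 fold was 0.10 (SE 0.031, 95% interval 0.02 to 0.17), and it did not pass limma (adjusted p = 0.200) or limma-voom (adjusted p = 0.0803). After the GC and length correction the fold was 0.08 (95% interval 0.02 to 0.14), and the groups still did not overlap, as for 9.54% of genes with SMF higher on that scale. The fold was 0.06 on the TPM scale (95% interval -0.004 to 0.13) and 0.08 without SMF 3 (95% interval -0.008 to 0.17). Its interval also reached below 0 without Control 4, without the variance trend, and with block and correction. The level of Atp2a2 relative to Tmbim6 in the same library was 0.394, 0.399 and 0.404 in Control 2, 3 and 4, and 0.349, 0.365 and 0.336 in SMF 1, 2 and 3. This ratio of Atp2a2 to Tmbim6 was formed after the values were seen, and it carries no test. It pairs the only tested genes of the 8 whose groups did not overlap. Tmco1, the other leak gene, had a log2 fold of -0.07 beside -0.09 for Atp2a2, so this ratio does not describe leak transcripts in general.

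**Figure D2:**
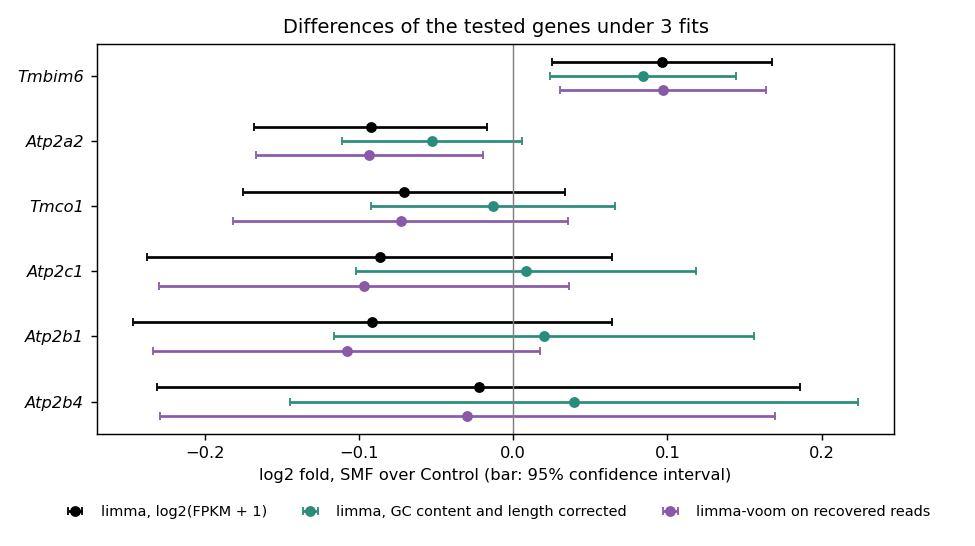
Log2 fold of SMF over Control for the 6 tested genes, with 95% confidence intervals, by limma on log2(FPKM + 1), by limma after the GC and length correction, and by limma-voom on recovered reads. Tmbim6 stays above 0 and Atp2a2 and Tmco1 below 0 under all 3, while Atp2b1, Atp2b4 and Atp2c1 lie below 0 in the uncorrected fits and above 0 (0.02, 0.04 and 0.0084) after the correction.

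The folds of all tested genes followed GC content and length in these libraries. The median fold was -0.11 in the decile of genes with the lowest GC content and 0.09 in the decile with the highest, and 0.09 in the shortest and -0.08 in the longest decile. Atp2b1 and Atp2c1, with 43.6% and 44.3% GC and exon lengths of 15218 and 9694 bases, fall in the second lowest decile by GC and the longest decile by length, whose medians were -0.08 in each case. Their own folds, -0.09 each, lay close to those medians. Tmco1 (45.9% GC, 4764 bases) had a fold of -0.07 beside medians of -0.07 in its decile by GC and -0.01 in its decile by length. Atp2a2 (48.7% GC, 6081 bases) had a fold of -0.09 where genes of its deciles had medians of -0.02 and -0.04. Tmbim6 (52.6% GC, 4578 bases) had 0.10 where the medians were 0.02 and -0.01. Atp2b4 (48.8% GC, 12248 bases) had -0.02 beside medians of -0.02 and -0.08. By GC content, Atp2a2 and Tmbim6 thus lay farthest from the median of their decile, and by length Tmbim6 did.

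**Figure D3:**
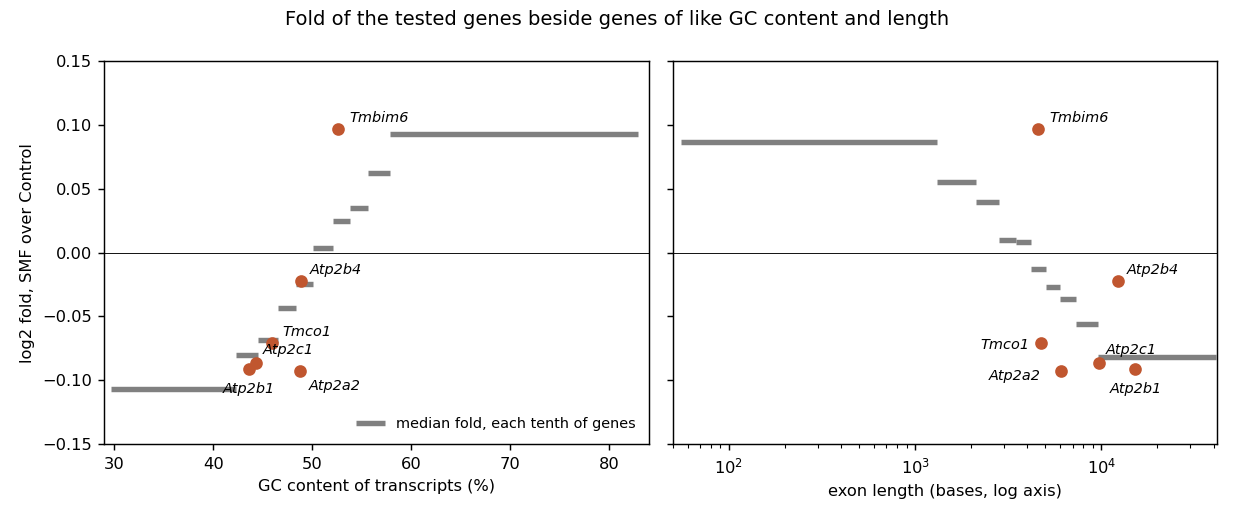
Log2 fold of SMF over Control (vertical axis) of the 6 tested genes as points, against GC content in percent (left) and exon length in bases on a log axis (right); gray bars span each decile of the tested genes at its median fold. Atp2b1, Atp2c1 and Tmco1 lie near the bars of their GC decile (-0.08, -0.08 and -0.07), Atp2a2 below its bar (-0.02) and Tmbim6 above its bar (0.02).

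Across the 6 libraries, Atp2a2 and Tmbim6 varied in opposite directions (Pearson r of log2(FPKM + 1) = -0.964, and -0.994 after the GC and length correction). The 6 points share the difference between groups, and no test was made of this relation. Atp2b1, Atp2c1 and Tmco1 had r from 0.81 to 0.96 between pairs, and from 0.37 to 0.73 after the correction. Atp2a2 had values of similar size with these genes (0.74 with Atp2b1, 0.81 with Atp2c1 and 0.83 with Tmco1, corrected -0.0094, 0.04 and 0.35). Atp2b4 had 0.78 with Atp2c1 and 0.73 with Tmco1 (corrected 0.49 and 0.21). With Atp2a2, Atp2b1 and Tmbim6 it had 0.42, 0.31 and -0.18, and each changed sign after the correction (-0.53, -0.37 and 0.54). Of 7125 tested genes with a mean of at least 5 FPKM and a gene name, those most like Atp2a2 over the 6 libraries were Anks4b (r = 0.999, corrected 0.967) and Srrm1, a splicing coactivator (r = 0.998, corrected 0.997). Those most like Tmbim6 were Otud5, a deubiquitinase (r = 0.993, corrected 0.990), and Vps28, of the endosomal sorting machinery (r = 0.992, corrected 0.9745). Atp2b1 was followed most closely by Ercc3 (r = 0.997, corrected 0.316) and Nup88 (0.996, corrected 0.989), and Atp2b4 by Eif4e (0.981, corrected 0.917) and Elovl6 (0.980, corrected 0.830). For Atp2c1 the closest were Habp4 (0.996, corrected 0.730) and Arpin (0.995, corrected 0.635), and for Tmco1 Atrx (0.996, corrected 0.927) and Ppp4r3b (0.995, corrected 0.962). With 6 points such values are common: between 98 and 438 genes had an r above 0.9 with each of the 6.

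Other genes of calcium transport were read from 4 lists, and limma called none of their tested members. Relatives of the 8 genes had 5 tested members of 17 listed, all 5 with a fold above 0 and a median of 0.16, beside -0.01 over all tested genes. That median was 0.09 after the GC and length correction and 0.10 with block and correction, and 0.11 without Control 2. Of these, 4 belong with Tmbim6 to the TMBIM family. Groups without overlap and with SMF higher, given below for some of them, were found for 11.0% of all tested genes (9.54% after the correction). Grina (Tmbim3), a Golgi and ER member, was at 163.4, 166.5 and 156.6 FPKM in Control 2, 3 and 4 and at 183.0, 175.8 and 192.3 in SMF 1, 2 and 3. Its groups did not overlap, with a log2 fold of 0.18 (SE 0.043, limma adjusted p = 0.161, limma-voom adjusted p = 0.0187) and 0.06 after the GC and length correction, where the groups overlapped. Tmbim4, a Golgi member chosen for mention once its values were known, was at 46.7 ± 2.43 and 52.8 ± 1.11 FPKM with no overlap (log2 fold 0.17, limma adjusted p = 0.164, limma-voom adjusted p = 0.0418, and 0.17 after the correction). Ghitm (Tmbim5), of the inner mitochondrial membrane, was at 62.4 ± 1.84 and 64.0 ± 2.16 FPKM, with overlapping groups and a fold of 0.04. That fold was -0.0046 under quantile normalization, 0.0099 without SMF 2 and 0.09 after the GC and length correction, where the groups did not overlap and SMF was higher. Tmbim1 had 8.19 ± 0.013 and 8.55 ± 0.099 FPKM (log2 fold 0.05, limma adjusted p = 0.540), with no overlap except on the TPM scale, where the fold was 0.03, and Faim2, a nerve member, was under 0.1 FPKM.

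Partners and regulators of the pumps had 10 tested of 15 listed, 4 with a fold above 0 and 6 below (median -0.03). The median turned to 0.03 with the GC and length correction and to 0.01 with block and correction, and was -0.07 both on the TPM scale and under quantile normalization. Bsg, basigin, which together with neuroplastin (Nptn) forms part of plasma membrane pump complexes, stood at 467.1, 378.2 and 377.1 FPKM in Control and 438.0, 364.5 and 423.9 under SMF. Control 2 was the highest of the 6 and SMF 2 the lowest, and the fold of 0.0075 changed sign under 9 of 18 alternatives. Nptn was at 22.1 ± 0.8 and 21.4 ± 0.51 FPKM, and Calm2, a calmodulin gene whose protein activates PMCA pumps, at 247.2 ± 8.46 and 235.2 ± 6.17 (log2 fold -0.07, limma adjusted p = 0.361). Tmx1, an ER thioredoxin-related protein that acts on SERCA2, was named after its values were seen. It was at 19.8 ± 0.88 FPKM in Control and 17.4 ± 1.08 under SMF. The groups did not overlap, as for 12.7% of all tested genes with SMF lower. The log2 fold was -0.18 (limma adjusted p = 0.186), and -0.10 after the GC and length correction. S100a1 of the same list, also named with values known, was at 74.5 ± 6.47 and 84.3 ± 1.02 FPKM. Its log2 fold went the other way, at 0.18 (limma adjusted p = 0.205). The S100a1 groups did not overlap, as for 11.0% of all tested genes with SMF higher, but they did after the correction. Of the 10 tested genes, 2 had groups without overlap with SMF higher and 2 with SMF lower.

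ER release and leak channels had 13 tested of 17 listed, 8 above 0 and 5 below (median 0.05). It was 0.02 without SMF 2, without Control 4 or on the TPM scale. Bcap31, listed here but an ER membrane protein rather than a channel, had the highest level of the list, at 159.2 ± 1.56 and 156.9 ± 2.79 FPKM. Sec61a1, the core of the translocon and a route of calcium leak, was at 57.5 ± 1.47 and 60.002 ± 1.19 (log2 fold 0.06, limma adjusted p = 0.409, and 0.03 on the TPM scale). The IP3 receptors, which release ER calcium in response to hormones, were led by Itpr3 at 45.0 ± 1.32 and 47.2 ± 0.47 FPKM, above Itpr2 (5.08 ± 0.28 and 4.52 ± 0.29) and Itpr1 (1.49 ± 0.021 and 1.32 ± 0.17). ER calcium-binding proteins had 12 tested of 16 listed, 7 above 0 and 5 below (median 0.02). This median was -0.01 on the TPM scale and -0.03 under quantile normalization, and 0.05 after the GC and length correction, so it had no stable sign. With 1 library left out it was lowest without SMF 3, at 0.0076, and 0.01 without Control 2 or SMF 2. Calr, calreticulin, the main calcium buffer of the ER, was at 336 ± 12.0 and 359.1 ± 5.17 FPKM (log2 fold 0.10, limma adjusted p = 0.235). Its groups did not overlap, as for 11.0% of all tested genes with SMF higher. The fold was 0.06 on the TPM scale, where the groups overlapped, and 0.04 under quantile normalization. Pdia3, a disulfide isomerase, was at 181.7 ± 5.6 and 178.9 ± 1.99 FPKM (log2 fold -0.02).

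**Figure D4:**
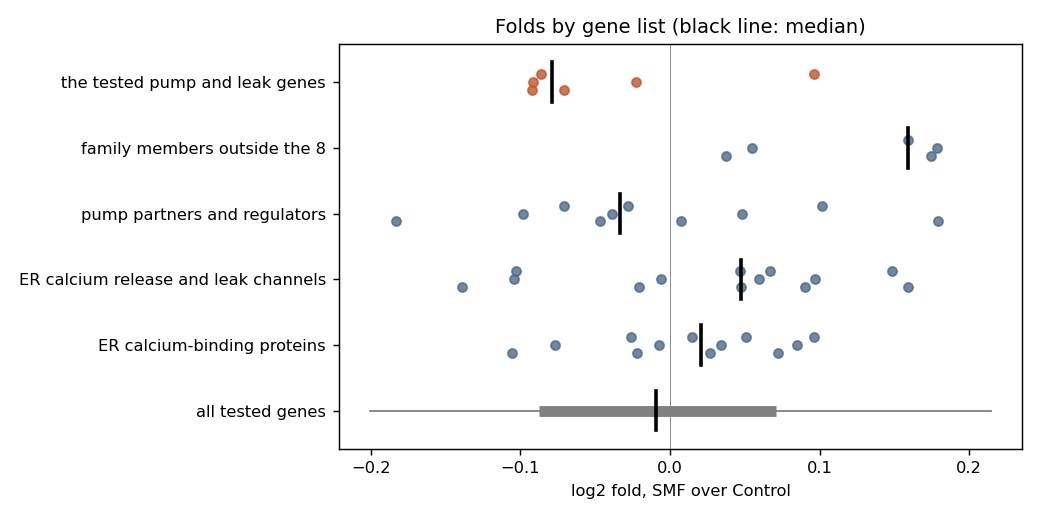
Log2 fold of SMF over Control for tested genes of each list, 1 point a gene, with the list's median as a black line; for all 11114 tested genes the thick bar runs from the 25th to the 75th percentile and the thin line from the 5th to the 95th. The 6 pump and leak genes have a median of -0.08 and their 5 tested relatives 0.16; after the GC and length correction, not drawn here, these medians were 0.01 and 0.09.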

How the data were processed

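The authors deposited FPKM values, 1 file per library, for 23886 Ensembl identifiers. Per the submitters' processing notes reads were handled on build GRCm39, and HISAT2 (version 2.1.0) is listed beside Bowtie2 (version 2.2.3) without a role for either; no counter or annotation is given in the sources used here. Symbols (23521 identifiers), exon length, GC content and transcript sequences came from GENCODE M21, on build GRCm38, so no coordinates are given. Library totals were found as the values at which FPKM times length comes out in whole reads (98.1% of 21741 genes in all libraries, within 0.02 reads). limma 3.58.1 in R 4.3.3 was run with a variance trend, two-sided, and tested on simulated data; limma-voom used 10815 genes with whole reads, with no further scaling. The correction was a loess fit (span 0.3) in each library on the 99.47% of tested genes with GC content and length. The 18 alternatives covered pseudocounts, filters, scalings, the variance trend, a replicate block, this correction, limma-voom and leaving out each library. Named were all 8 genes, the 2 with the highest mean of each list where none passed, and the 2 most correlated with each tested gene. Other genes with values (Slc8a2, Slc8a3, Slc8b1, Tmbim1, Tmbim4, Faim2, Nptn, Tmx1, S100a1, Itpr1, Itpr2 and Itpr3, relatives in the SERCA, PMCA and SPCA families, Aste1 and cell type markers) were named outside this rule, with values known. Members and lists were chosen with earlier results of these data known. Of the 65 genes in the 4 lists, those without a value are not analysed here. The coding stretch of 1 pump is not reported here. Figures used matplotlib 3.10.9 in Python 3.11.15.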

Additional observations from a re-analysis of the deposited data

How the results depend on the processing

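None of the 6 tested genes passed an adjusted p of 0.05 under any of the 18 alternatives (17 for Atp2b4, which a filter at 5 FPKM leaves out). The folds of Atp2a2 (-0.14 to -0.05) and Tmbim6 (0.06 to 0.11) kept their sign in all 18, with adjusted p from 0.112 to 0.809 and from 0.0803 to 0.731. The sign of others turned, and the cause was not tested. Correcting for GC and length gave folds of 0.020 for Atp2b1, 0.040 for Atp2b4, 0.0084 for Atp2c1, 0.0034 for Pdia3 and -0.080 for Bsg. Adding the replicate block to the correction gave 0.031, 0.078, 0.035, 0.019 and -0.15 in that order, and 0.010 for Tmco1. The replicate block alone gave 0.037 for Atp2b4, 0.0089 for Pdia3 and -0.096 for Bsg. With 1 library left out, the fold of Atp2b4 ran from -0.068 to 0.030 (above 0 without SMF 1), that of Pdia3 from -0.042 to 0.0017 (above 0 without Control 4) and that of Bsg from -0.045 to 0.11 (below 0 in 4 of 6 cases). Rescaling to TPM gave -0.026 for Bsg, and quantile normalization gave -0.063 for Bsg and -0.0046 for Ghitm. Over all genes, 0 were called higher and 0 lower, against 6 and 2 with a filter at 5 FPKM, 13 and 6 with the replicate block, 3 and 0 with block and correction, and 230 and 251 by limma-voom. Leaving out 1 library gave 0 to 2 higher and 0 to 1 lower. Of the genes in the 4 lists (5, 10, 13 and 12 tested by limma), limma-voom called 2, Grina and Tmbim4, beside 4.45% of all genes it tested. Same-numbered libraries exist for numbers 2 and 3 only, and their deviations correlated at 0.0585 and 0.046, so the numbers were not taken to pair libraries. The replicate block, whose folds rest on Control 2 and 3 and SMF 2 and 3 only, changed no call among the 6 genes. Depth limits Slc8a1 and Atp2a3.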
